A study of Oryza sativa with 12 samples.

Results

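The question addressed here was whether loss of OsNADK1 altered the response of rice leaves to drought, or, put the other way, whether the difference between osnadk1 and WT leaves was larger or smaller under drought than under normal growth. The measure was the genotype by drought interaction, that is, the osnadk1 minus WT difference under drought less the osnadk1 minus WT difference under normal growth, in log2 units of signal. A positive value means that drought moved a gene further up (or less far down) in osnadk1 than in WT, and 1 log2 unit is a 2-fold ratio of ratios. All 12 arrays of the series entered it, 3 in each of 4 groups, namely osnadk1 under drought, WT under drought, osnadk1 under normal growth and WT under normal growth. Of 57381 probe sets on the Affymetrix rice array, 187 controls were left out and 32064 were tested, those that reached the median signal of their own array on at least 3 arrays.

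Both genotypes are of the japonica cultivar Dongjin. The osnadk1 plants come from 1 T-DNA insertion line in which OsNADK1 is knocked out, and each grew beside a WT plant in the same pot. RNA was from the youngest leaves that had fully expanded, on plants 2.5 months old, taken at day 15 of withheld water, at a soil moisture of 8.5%, for drought and at day 0, at 47.3%, for normal growth. Drought and the passing of 15 days therefore cannot be told apart within a genotype, whereas the interaction compares the genotypes over the same days. The labels call the replicates biological without giving the plants or pots behind each array, and give the WT arrays as re-analysed, so each p-value reflects only array-to-array spread.

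NAD kinases phosphorylate NAD to NADP, and the reduced form, NADPH, feeds biosynthesis and the ascorbate and glutathione cycles that remove reactive oxygen species. Drought closes stomata, warms leaves and raises abscisic acid, and leaves commonly answer with several sets of genes. Heat shock proteins and the ClpB disaggregases protect or refold damaged proteins under the control of heat stress transcription factors (HSFs). Dehydrins and other late embryogenesis abundant (LEA) proteins accumulate in drying tissue downstream of abscisic acid, DREB1 factors switch on dehydration and cold genes, and JAZ proteins hold jasmonate signalling in check and are themselves jasmonate-induced.

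The OsNADK1 probe set (Os01g0957000) gave log2 signals of 5.65, 5.45 and 4.39 in osnadk1 and 9.43, 9.53 and 9.47 in WT under drought, and of 3.96, 5.16 and 4.78 in osnadk1 and 10.27, 9.55 and 9.55 in WT under normal growth. The osnadk1 arrays were the lower ones in both treatments with no overlap, as the labels imply, and the interaction was 0.74 ± 0.54 (estimate ± standard error, limma adjusted p = 0.84). Prefixes of the array labels divide the arrays into 2 sets, called here job A and job B, and what the prefixes stand for is not stated. Job A holds replicates 1 and 2 of osnadk1 and replicate 1 of WT in each treatment, and job B the others, so each job gives an interaction of its own. The 3 normal-growth arrays of job A stood apart from the rest, between -140.6 and -121.2 on the first principal component, against 26.7 to 66.5 for the other 9 arrays. For this reason the fit had a job term within each treatment, which makes the interaction the mean of the job A and job B interactions, and results are also given by job and without those 3 arrays. Without them, osnadk1 under normal growth is replicate 3 alone, which limits every result of that fit. All 12 probe sets of the list of antenna, photosystem and Rubisco small subunit genes passed the filter, as the labelled tissue, leaf, requires. The mean of 3 root-gene probe sets ran from 9.17 to 9.74 in osnadk1 and 8.46 to 10.13 in WT under drought, and from 9.46 to 10.04 in osnadk1 and 9.41 to 10.38 in WT under normal growth, so the groups overlapped. Among these 3 is the silicon channel gene Lsi6, at 10.57 to 12.49 across these leaf arrays, so the overlap is no measure of root material.

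No probe set passed the test for the interaction (0 of 32064, 0%, limma with Benjamini-Hochberg adjustment at 0.05), and the smallest adjusted p was 0.105. At an unadjusted p under 0.05 there were 1142 probe sets with a positive interaction (3.56%) and 1114 with a negative one (3.47%), and 972 of these 2256 were also over 2-fold. An ordinary linear model without shrinkage of variances likewise called 0. The values spread around a median of 0.01, with a 5th percentile of -1.10 and a 95th percentile of 1.23, and the median standard error was 0.36. The gene groups below are therefore described by their values and counts against these shares, and none of their interactions passed the adjusted threshold.

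The jobs gave opposite signs for most probe sets. Across the 32064 probe sets, which are not independent of each other, the interaction of job A and that of job B had a Pearson correlation of -0.14 and a Spearman correlation of -0.13, and the sign was the same in 44.1%. The interaction differed between the jobs (limma on 8 cell means, adjusted p under 0.05) in 1229 probe sets, 3.83% of those tested. Fitted alone, job A called 300 probe sets, 89 of them positive, and job B called 383, 296 of them positive, in each case with 2 residual degrees of freedom. Of the 53 called in both, 2 had the same sign, and both encode small heat shock proteins, HSP18.0 (-3.59 in job A, -1.91 in job B) and HSP24.1 (-2.40 and -2.31). In 51 the sign was opposite. Leaving out the 3 normal-growth arrays of job A gave 285 calls, 237 positive, and 2 single arrays had as large an effect. Without osnadk1 normal replicate 3, which is the only osnadk1 array of job B under normal growth, 567 were called, 103 of them positive, and without WT normal replicate 1, the only WT array of job A there, 282 were called, 229 of them positive.

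**Figure D1:**
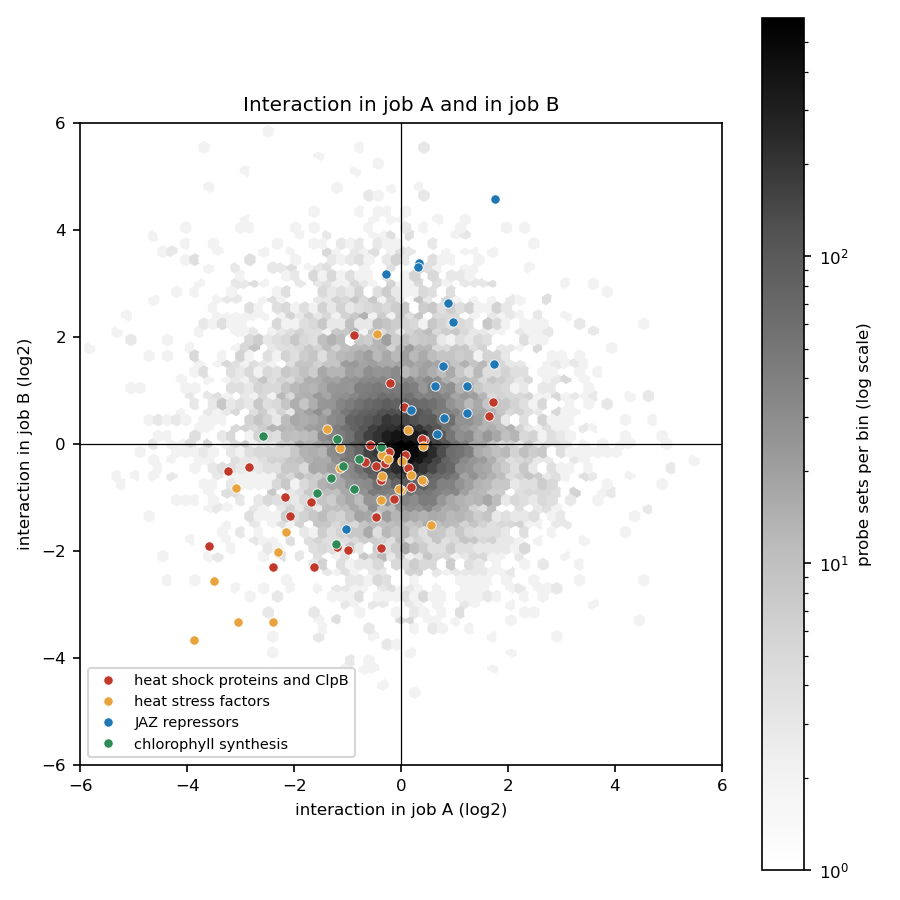
Interaction in job B (vertical axis, log2) against that in job A (horizontal axis, log2) for the probe sets tested, with darker grey for more probe sets per bin (log scale) and coloured points for members of 4 gene lists; 125 probe sets beyond 6 in either job are not drawn. The grey cloud has no upward slope (r = -0.14), whereas most heat shock, heat stress factor and chlorophyll synthesis points lie at lower left and most JAZ points at upper right.

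Genes of opposite sign in the jobs included plant defence and water transport genes, picked for description after their values were seen. Cht2, a chitinase, had log2 signals of 10.06, 10.70 and 10.20 in osnadk1 and 10.54, 10.08 and 9.81 in WT under drought, and of 8.36, 7.48 and 9.52 in osnadk1 and 3.00, 11.06 and 11.53 in WT under normal growth. WT normal replicate 1 was far below the other WT arrays of normal growth, and below its array's median, and the osnadk1 arrays lay between, giving an interaction of -5.08 for job A but 2.03 for job B. A second Cht2 probe set gave -3.45 (A) and 2.64 (B), with WT normal replicate 1 at 5.77, above its array's median. The plasma membrane aquaporin OsPIP2;1 showed the same arrangement, with 11.16, 11.57 and 12.02 in osnadk1 and 12.20, 11.41 and 11.21 in WT under drought, and 10.15, 9.46 and 9.59 in osnadk1 and 7.66, 11.84 and 11.86 in WT under normal growth. The 2 jobs gave -2.98 (A) and 2.97 (B). The chitinase Cht5 gave -3.07 and 2.96, the glutaredoxin GRXC15 -3.83 and 3.37 and the peroxiredoxin PRXIIE-2 -2.11 and 1.10, whereas the Clp protease family gene CLPD1 ran the other way, with 2.52 (A) and -1.41 (B) by job.

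Heat shock genes gave a group with mostly negative interactions in both jobs. Of 31 heat shock protein and ClpB probe sets tested, from 22 genes, 24 were negative, 20 of them in both jobs, against 21.4% of all probe sets negative in both. Counts at an unadjusted p under 0.05 were 13 negative and 1 positive, where 3.47% and 3.56% of all probe sets tested were so. The median interaction was -0.44 (-0.37 for job A, -0.44 for job B), against 0.01 over all probe sets. Without the normal-growth arrays of job A the counts were 12 negative and 3 positive, against 5.53% and 9.34% of all, with a median of -0.28. In WT, 10 of the 31 rose under drought and 1 fell (6.02% and 3.97% of all tested), and in osnadk1 1 rose and 1 fell (3.61% and 3.08%).

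ClpB-M, a mitochondrial member of the ClpB disaggregase family, was among the probe sets with the smallest p. Under drought its signals were 8.06, 8.30 and 7.60 in osnadk1 and 8.46, 8.32 and 8.43 in WT, and under normal growth they were 9.51, 9.76 and 8.21 in osnadk1 and 8.29, 6.80 and 6.55 in WT. The osnadk1 arrays were the lower ones under drought without overlap and, apart from replicate 3, the higher ones under normal growth. The interaction was -1.96 ± 0.26 (limma adjusted p = 0.105), with job values of -1.62 (A) and -2.31 (B). It was -2.06 without the normal-growth arrays of job A, where osnadk1 under normal growth is replicate 3 alone. ClpB-M fell by 0.98 under drought in osnadk1 (limma adjusted p = 0.0098) and rose by 0.99 in WT (limma adjusted p = 0.0065), and it was higher in osnadk1 than in WT under normal growth (1.44, limma adjusted p = 0.012). The chloroplast counterpart ClpB-C varied less, with an interaction of -0.52 ± 0.15.

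The small heat shock proteins, which hold unfolding proteins in solution, showed a similar arrangement. HSP17.9A had signals of 11.28, 11.19 and 11.53 in osnadk1 and 12.61, 12.65 and 12.54 in WT under drought, and of 11.27, 11.58 and 10.55 in osnadk1 and 10.64, 10.61 and 10.62 in WT under normal growth. Under drought all osnadk1 arrays were lower than all WT arrays (-1.22, limma adjusted p = 0.048), while under normal growth the groups overlapped through osnadk1 replicate 3. It rose by 1.88 under drought in WT (limma adjusted p = 0.0002) and had a difference of 0.30 in osnadk1 (limma adjusted p = 0.39), and the interaction was -1.58 ± 0.25 (limma adjusted p = 0.18).

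HSP24.1 gave 10.57, 11.06 and 9.10 in osnadk1 and 11.05, 10.75 and 10.63 in WT under drought, against 13.07, 13.22 and 9.03 in osnadk1 and 10.98, 8.35 and 8.27 in WT under normal growth. The normal-growth arrays of job A were the highest of their genotype under normal growth, and within each job osnadk1 was above WT under normal growth. Its interaction was -2.36 ± 0.48 (limma adjusted p = 0.34), and it rose by 1.22 under drought in WT (limma adjusted p = 0.045), with -1.14 in osnadk1 (limma adjusted p = 0.076).

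HSP18.0 had 11.80, 11.80 and 11.31 in osnadk1 and 12.32, 12.56 and 12.42 in WT under drought, and 12.72, 13.06 and 11.11 in osnadk1 and 9.82, 10.40 and 10.39 in WT under normal growth. The osnadk1 arrays were all lower under drought and all higher under normal growth. It rose by 2.16 under drought in WT (limma adjusted p = 0.007), with -0.59 in osnadk1 (limma adjusted p = 0.46). The interaction was -2.75 ± 0.57 (limma adjusted p = 0.34), further below 0 in job A than in job B (limma adjusted p = 0.023 for the difference), and -1.57 without the normal-growth arrays of job A. The other probe sets of the gene gave -0.24 and 0.24, so the probes of this gene disagreed. HSP18.6 (-1.57 ± 0.38) and HSP18.1 (-1.87 ± 0.79) were also negative, but HSP18.1 stood at -0.27 without the normal-growth arrays of job A and at -3.47 without osnadk1 normal replicate 3 (limma adjusted p = 0.006).

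Not every member followed. HSP17.9B, a further small heat shock protein, had 12.55, 12.59 and 12.96 in osnadk1 and 11.88, 12.09 and 12.43 in WT under drought, and 12.32, 12.47 and 11.61 in osnadk1 and 13.44, 11.81 and 11.56 in WT under normal growth. Its interaction was 1.25 ± 0.27 (limma adjusted p = 0.37), and it rose by 0.84 under drought in osnadk1 (limma adjusted p = 0.026). The HSP90-type chaperone HSP81-2 was at 14.21 to 14.25 in osnadk1 and 14.21 to 14.40 in WT under drought, and at 14.25 to 14.40 in osnadk1 and 14.11 to 14.40 in WT under normal growth, with an interaction of -0.06 ± 0.13 that turned positive under some settings.

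**Figure D2:**
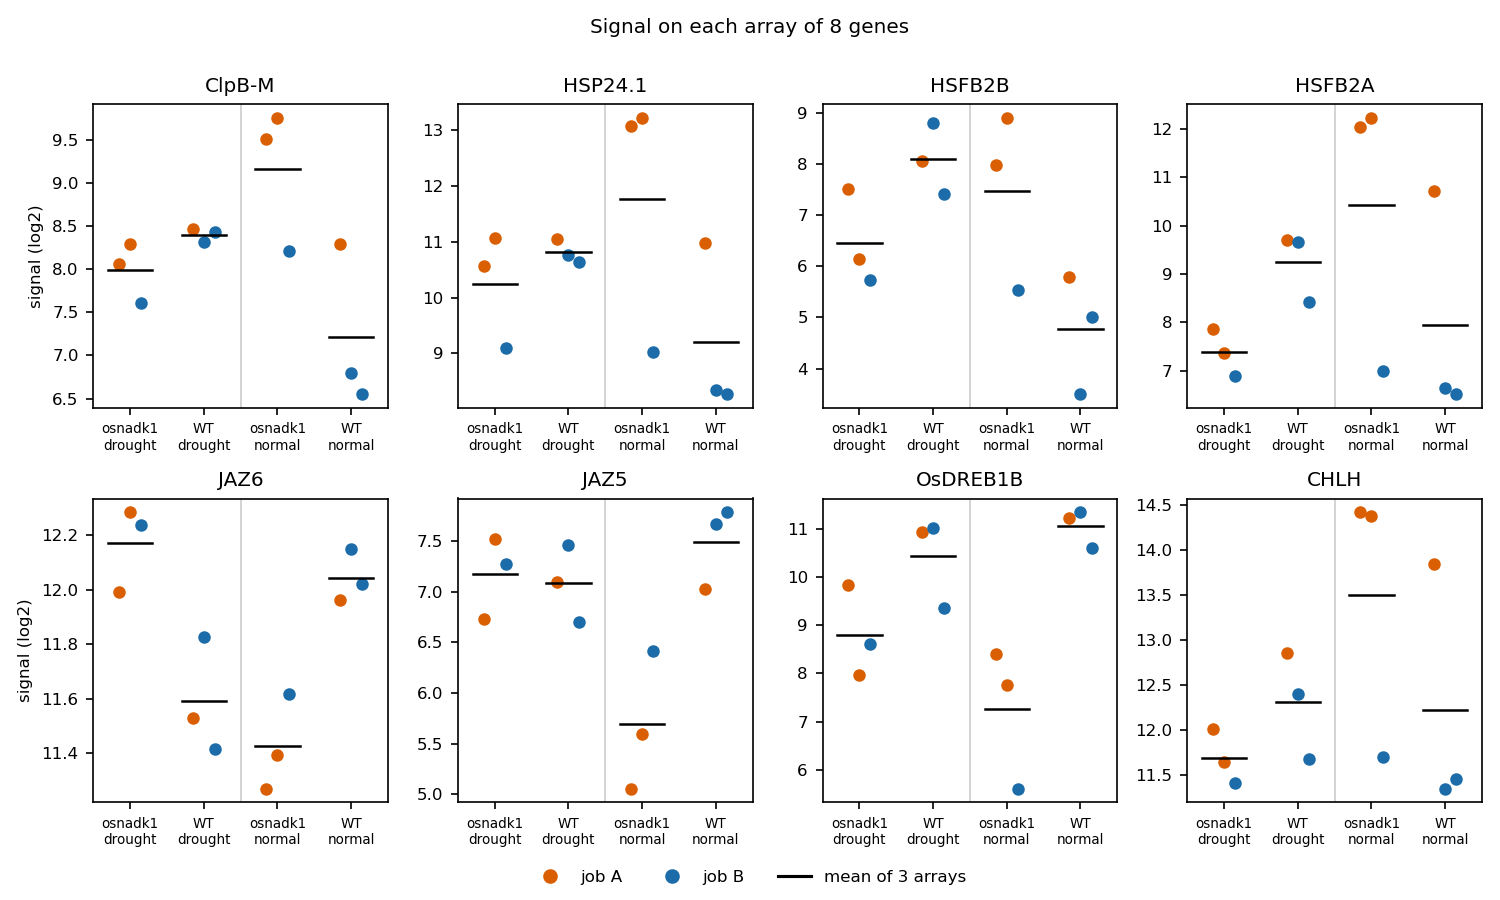
Log2 signal (vertical axes, which differ between panels and do not start at 0) on each of the 12 arrays for 8 genes, by group, with orange points for job A, blue points for job B and bars for the mean of 3 arrays. In ClpB-M, HSP24.1, HSFB2A and HSFB2B osnadk1 lay above WT within each job under normal growth and the job means were lower in osnadk1 under drought, while JAZ6 and JAZ5 were lower in osnadk1 on every array of normal growth.

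Most HSF genes were negative too. Of 23 HSF probe sets tested, from 18 genes, 20 were negative, 15 in both jobs, and 7 negative and 0 positive ones had an unadjusted p under 0.05, against 3.47% and 3.56% of all. The median interaction was -0.48 (-0.37 for job A, -0.67 for job B), and without the normal-growth arrays of job A it was -0.58, with 6 negative and 0 positive. The 7 belong to 4 genes, the class B factors HSFB2A, HSFB2B and HSFB2C, a class whose members lack the activation motif of class A, and the class C factor HSFC2A. The class A factor HSFA1 went against most of the list, at 0.19 ± 0.19 with a sign that differed between settings. It is 1 member and no measure of class A, whose other members are not given here.

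HSFB2A had signals of 7.87, 7.37 and 6.89 in osnadk1 and 9.69, 9.65 and 8.42 in WT under drought, and of 12.04, 12.23 and 6.99 in osnadk1 and 10.71, 6.63 and 6.51 in WT under normal growth. All osnadk1 arrays were the lower ones under drought, and under normal growth the 3 job A arrays were higher than the job B arrays of either genotype by several log2 units. Its interaction was -3.03 ± 0.47 (limma adjusted p = 0.16), -3.51 (A) and -2.56 (B) by job, and -1.95 ± 0.58 on a second probe set. Under drought it fell by 2.39 in osnadk1 (limma adjusted p = 0.0021), with a difference of 0.65 in WT (limma adjusted p = 0.26).

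HSFB2B gave 7.51, 6.14 and 5.72 in osnadk1 and 8.05, 8.81 and 7.40 in WT under drought, and 7.98, 8.90 and 5.54 in osnadk1 and 5.79, 3.5 and 5.0 in WT under normal growth. The groups overlapped in each treatment by 1 array, and the interaction was -3.78 ± 0.88 (limma adjusted p = 0.41), -3.88 (job A) and -3.68 (job B). It rose by 3.04 under drought in WT (limma adjusted p = 0.0115), against a difference of -0.74 in osnadk1 (limma adjusted p = 0.56). The 3 probe sets of HSFB2C gave -2.16, -2.87 and -3.20, and HSFC2A gave -1.90 ± 0.50. With signals floored at each array's median, HSFB2B stood at -3.21 and its rise in WT at 2.38 (limma adjusted p = 0.036), since WT normal replicates 2 and 3 lay below that median.

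JAZ genes gave a group with mostly positive interactions. Of 15 JAZ probe sets, from 13 genes, 14 were positive, 13 of them in both jobs, against 22.7% of all probe sets positive in both. At an unadjusted p under 0.05 there were 10 positive and 1 negative, against 3.56% and 3.47% of all, and the median interaction was 1.16 (0.79 for job A, 1.46 for job B). Without the normal-growth arrays of job A the counts were 9 and 1, against 9.34% and 5.53% of all, and the median was 1.19. The group lay lower in osnadk1 under normal growth, where the median osnadk1 minus WT difference was -0.97 and 7 of the 15 had every osnadk1 array below every WT array (4.22% of all probe sets, and 3.56% the reverse), against a median of 0.13 and 0 of 15 under drought (6.55% of all). Under drought 4 of the 15 had every osnadk1 array above every WT array (8.69% of all). In osnadk1 6 rose under drought and 1 fell (3.61% and 3.08% of all), and in WT 0 rose and 2 fell (6.02% and 3.97%).

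JAZ6 signals were 11.99, 12.28 and 12.24 in osnadk1 and 11.53, 11.83 and 11.41 in WT under drought, and 11.27, 11.39 and 11.62 in osnadk1 and 11.96, 12.15 and 12.02 in WT under normal growth. The osnadk1 arrays were all higher under drought and all lower under normal growth, and the jobs gave 1.24 and 1.08. The interaction was 1.16 ± 0.19 (limma adjusted p = 0.19), between 1.07 and 1.25 under every alternative run, and JAZ6 rose by 0.73 under drought in osnadk1 (limma adjusted p = 0.0095), against -0.44 in WT (limma adjusted p = 0.063).

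JAZ5 gave 6.74, 7.52 and 7.27 in osnadk1 and 7.10, 7.46 and 6.70 in WT under drought, and 5.06, 5.60 and 6.41 in osnadk1 and 7.03, 7.67 and 7.78 in WT under normal growth. The genotypes overlapped under drought, and osnadk1 was lower without overlap under normal growth, with an interaction of 1.62 ± 0.45 (limma adjusted p = 0.51). JAZ7 was at 13.61, 13.81 and 13.77 in osnadk1 and at 13.12, 13.15 and 13.19 in WT under drought, with overlap under normal growth, and its interaction was 0.64 ± 0.16. Both JAZ4 probe sets were positive (0.91 ± 0.17 and 0.86 ± 0.23), and both fell under drought in WT, by 1.17 (limma adjusted p = 0.0004) and 1.09 (limma adjusted p = 0.0023).

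Larger JAZ values came with larger errors. JAZ9 gave 3.17 ± 1.5, JAZ13 1.87 ± 0.90, JAZ8 1.81 ± 0.61 and JAZ10 1.76 ± 0.65. All were larger in job B. By job, JAZ13 gave 0.34 (A) and 3.39 (B) and JAZ8 0.31 (A) and 3.31 (B). JAZ9 gave 1.75 (A) and 4.59 (B) and JAZ10 0.88 (A) and 2.65 (B). JAZ9 had 5.62, 5.76 and 7.05 in osnadk1 and 7.01, 6.10 and 4.82 in WT under drought, and 2.02, 4.31 and 5.24 in osnadk1 and 6.24, 10.18 and 6.29 in WT under normal growth. Its WT normal replicate 2 was by far the highest array, and without it the interaction was 2.34, and with signals floored at each array's median it was 1.96. JAZ2 was the one exception in the group, at -1.31 ± 0.38 (limma adjusted p = 0.54), with osnadk1 above WT on every array of normal growth and a fall of 1.30 under drought in osnadk1 (limma adjusted p = 0.017).

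**Figure D3:**
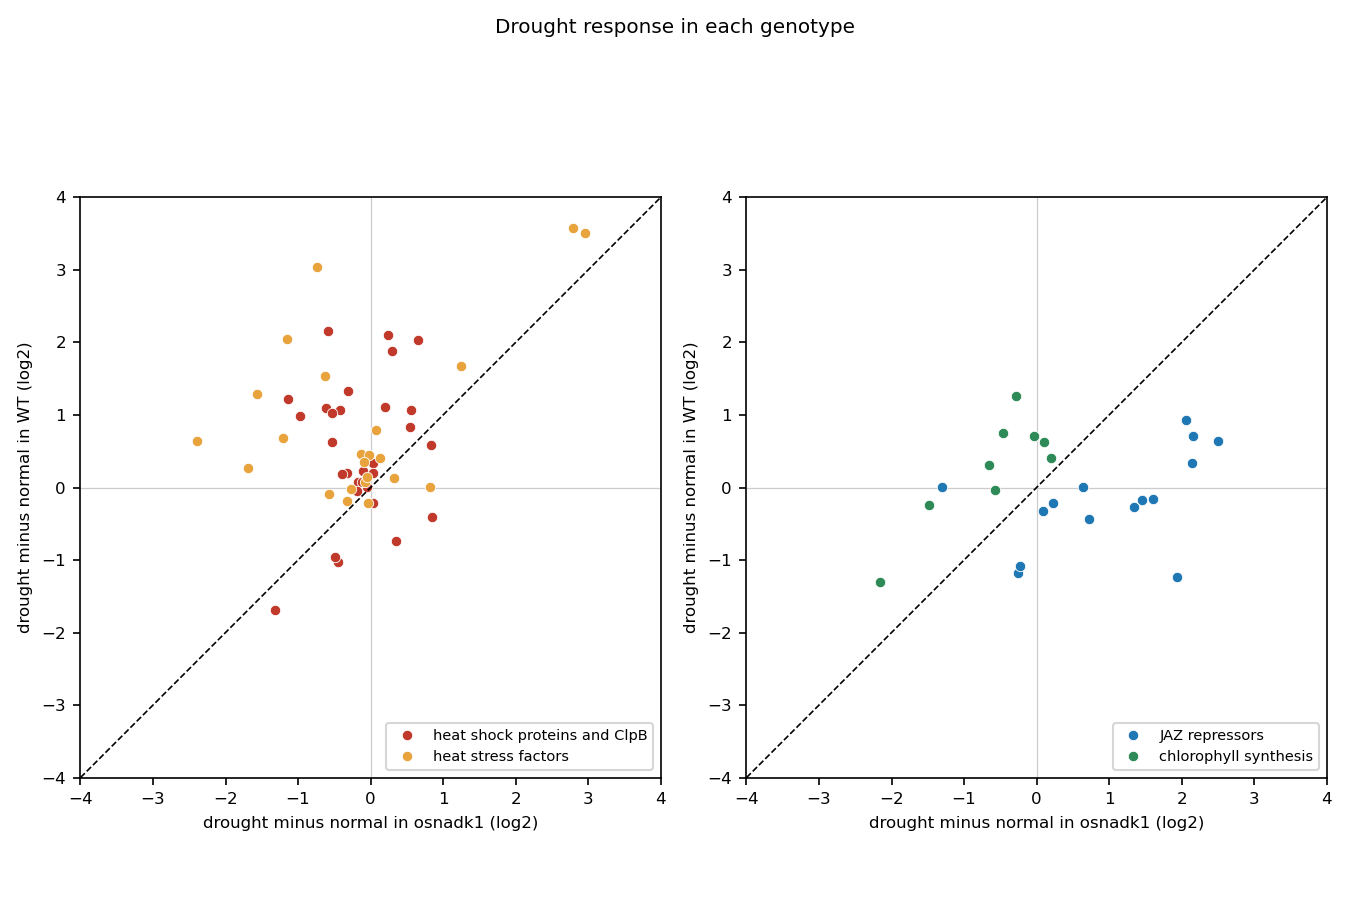
Drought minus normal difference in WT (vertical axes, log2) against that in osnadk1 (horizontal axes, log2) for each tested probe set of 4 gene lists, with a dashed line where the genotypes are equal, so that points above it have a negative interaction. The heat shock and HSF points of the left panel lie mostly above the line, and in the right panel 14 of 15 JAZ points lie below it and all 9 chlorophyll synthesis points above it.

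Of the DREB1 factors, which bind the dehydration-responsive element, 4 of 5 tested had a positive interaction in both jobs (22.7% of all probe sets). The list median was 1.32, and 1 reached an unadjusted p under 0.05 (3.56% of all). OsDREB1B had signals of 9.83, 7.96 and 8.60 in osnadk1 and 10.93, 11.02 and 9.36 in WT under drought, and of 8.39, 7.76 and 5.61 in osnadk1 and 11.22, 11.34 and 10.60 in WT under normal growth. The arrays overlapped under drought (-1.81, limma adjusted p = 0.40), whereas osnadk1 was lower on every array of normal growth (-4.25, limma adjusted p = 0.027). The interaction was 2.44 ± 0.90 (limma adjusted p = 0.62), with 1.11 (A) and 3.77 (B) by job. The related CBF1 (2.26 ± 1.2) and CBF3 (1.32 ± 0.92) were positive with wide errors, and DREB1E was at -0.68 ± 0.91. In CBF1, WT drought replicates 1 and 3 were at 2.95 and 2.19, both below their array's median. With signals floored at that median CBF1 stood at 0.52, CBF3 at 0.97, DREB1G at 0.09 and DREB1E at -0.86, while OsDREB1B kept 2.44. The list median of 1.32 therefore rests in part on signals below the array median.

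OsDREB1B is one of 10 genes that the study followed by qRT-PCR, 8 of which had a positive interaction on these arrays, where 51.3% of all probe sets did. The study took these genes from the osnadk1 and WT differences of the same arrays, so their count and direction are not independent evidence. The auxin-responsive gene OsSAUR2 had the largest of them. Its signals were 8.54, 7.80 and 8.87 in osnadk1 and 9.17, 9.31 and 8.45 in WT under drought, and 5.10, 2.82 and 5.64 in osnadk1 and 8.92, 9.50 and 8.84 in WT under normal growth. Only the osnadk1 arrays of normal growth were low, replicates 1 and 2 below their array's median. OsSAUR2 rose by 3.76 under drought in osnadk1 (limma adjusted p = 0.0045), or by 2.92 with signals floored at that median (limma adjusted p = 0.0007), with a difference of 0.01 in WT (limma adjusted p = 0.99). The interaction was 3.74 ± 0.85 (limma adjusted p = 0.40), 3.96 (A) and 3.52 (B) by job, and 3.03 with the floor.

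The WRKY transcription factor gene OsWRKY21 gave 9.48, 8.47 and 9.90 in osnadk1 and 10.53, 10.18 and 9.69 in WT under drought, and 6.98, 5.48 and 6.15 in osnadk1 and 9.78, 9.60 and 7.99 in WT under normal growth. It rose by 3.19 under drought in osnadk1 (limma adjusted p = 0.008), with 0.89 in WT (limma adjusted p = 0.38), and its interaction was 2.30 ± 0.80 (limma adjusted p = 0.62). The calmodulin-like OsCML16 was lower in osnadk1 on every array of each treatment, with a difference of -0.62 under drought (limma adjusted p = 0.49) and one of -1.79 under normal growth (limma adjusted p = 0.023). Its interaction was 1.17 ± 0.36, with 1.06 (A) and 1.28 (B) by job, and it rose by 1.70 under drought in osnadk1 (limma adjusted p = 0.0032).

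The EF-hand calcium-binding gene OsCCD1 was likewise lower in osnadk1 on every array, with a difference of -1.57 under drought (limma adjusted p = 0.22) and -3.09 under normal growth (limma adjusted p = 0.012), and an interaction of 1.53 ± 0.55. OsMYB gave 1.74 ± 0.61, or 1.45 with the floor, and OsWRKY70 1.59 ± 0.73. OsWRKY42 (0.70 ± 0.68, or 0.20 with the floor) had opposite signs in the jobs, 1.76 (A) and -0.36 (B). The NAC factor gene OsNAC9 did so too, with -0.97 and 0.29 around -0.34 ± 0.44. It was lower in osnadk1 under drought without overlap (10.41, 9.86 and 10.12 in osnadk1 and 12.03, 12.25 and 11.67 in WT), a difference of -1.86 (limma adjusted p = 0.077), and the difference under normal growth was -1.53 (limma adjusted p = 0.10).

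The sucrose synthase gene OsRSUS1 was negative on both probe sets (-2.02 ± 0.77 and -0.94 ± 0.54). On the first its signals were 7.15, 7.13 and 8.44 in osnadk1 and 8.98, 9.82 and 10.33 in WT under drought, and 6.64, 5.52 and 6.68 in osnadk1 and 4.42, 8.17 and 7.40 in WT under normal growth. It rose by 3.18 under drought in WT (limma adjusted p = 0.0048), against 1.16 in osnadk1 (limma adjusted p = 0.26). WT normal replicate 1 was the lowest array, and without the normal-growth arrays of job A the interaction was -0.64.

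LEA and dehydrin genes rose under drought in WT and had negative interactions with wide errors. All 6 probe sets tested, of 9 on the array, were negative with a median of -1.80. Of these, 4 were negative in both jobs (21.4% of all) and 2 reached an unadjusted p under 0.05 (3.47%). All 6 rose under drought in WT (6.02% of all) and 3 rose in osnadk1 (3.61%). LEA19 and both RAB21 probe sets passed the filter through drought arrays alone, all WT ones among them. Their rise in WT is thus partly set by the filter, and the counts are not independent evidence. The abscisic acid-inducible dehydrin RAB21 had signals of 1.98, 2.20 and 9.82 in osnadk1 and 6.85, 11.77 and 13.03 in WT under drought, and of 1.52, 2.03 and 0.92 in osnadk1 and 1.03, 1.52 and 1.97 in WT under normal growth.

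All normal arrays, and osnadk1 drought replicates 1 and 2, lay below their array's median signal, used here in place of a detection call, and in each genotype the job B arrays of drought were above the job A arrays. RAB21 rose under drought by 7.93 in WT (limma adjusted p = 0.0002), while in osnadk1 replicate 3 was the one drought array above the median. With signals floored at the array median its drought difference was 4.42 in WT (limma adjusted p = 8.8e-05) and 2.38 in osnadk1 (limma adjusted p = 0.0036). Its interaction was -3.63 ± 1.04 (limma adjusted p = 0.52), -5.51 (A) and -1.75 (B) by job, and -2.05 with the floor. A second RAB21 probe set gave -1.70 ± 1.13 (limma adjusted p = 0.82), -2.45 (A) and -0.95 (B) by job, and -1.55 with the floor.

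LEA19 gave 1.60, 2.52 and 7.28 in osnadk1 and 6.30, 8.32 and 9.64 in WT under drought, against 0.41, 0.61 and 3.70 in osnadk1 and 0.47, 2.00 and 1.34 in WT under normal growth. It too was below the array median on every normal array and on osnadk1 drought replicates 1 and 2. With signals floored at that median its rise in WT was 2.41 (limma adjusted p = 0.0018). The interaction of -4.01 ± 1.45 (limma adjusted p = 0.62) became -1.33 with the floor, so its size rests on signals below the median. The acidic dehydrin gene Dhn1, above the median throughout, gave 10.43, 10.39 and 11.81 in osnadk1 and 10.99, 12.50 and 13.36 in WT under drought. It rose by 1.51 in WT (limma adjusted p = 0.0026), against 0.81 in osnadk1 (limma adjusted p = 0.061), with an interaction of -0.70 ± 0.32. RAB16C had opposite signs in the jobs, -4.28 (A) and 0.48 (B), and its WT normal replicate 1 was at 2.38, against 8.46 and 8.30 on the other WT arrays.

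Chlorophyll synthesis genes, a list drawn up after values were seen, were all negative. Of the 9 probe sets, 7 were negative in both jobs and 5 had an unadjusted p under 0.05, against 3.47% of all, with a median of -0.86 (-1.2 for job A, -0.41 for job B). In osnadk1 3 fell under drought and 0 rose (3.08% and 3.61% of all), and in WT 3 rose and 1 fell (6.02% and 3.97%). CHLH, which encodes a subunit of the magnesium chelatase at the entry to the chlorophyll branch, had 12.01, 11.64 and 11.41 in osnadk1 and 12.85, 12.39 and 11.67 in WT under drought, and 14.41, 14.37 and 11.70 in osnadk1 and 13.84, 11.35 and 11.45 in WT under normal growth. The normal-growth arrays of job A were the highest 3, and osnadk1 was above WT within each job there. CHLH fell by 1.48 under drought in osnadk1 (limma adjusted p = 0.0014), with -0.24 in WT (limma adjusted p = 0.51), and the interaction was -1.24 ± 0.27 (limma adjusted p = 0.37).

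CAO, the chlorophyll b-forming oxygenase, gave -0.86 ± 0.16 with nearly the same value in each job (-0.88 and -0.84). Averaged over the jobs, it fell by 2.16 in osnadk1 (limma adjusted p = 6.6e-06) and 1.30 in WT (limma adjusted p = 0.0001). Under normal growth the job A arrays were at 14.09 and 13.88 in osnadk1 and 13.65 in WT. Job B arrays there were at 10.27 in osnadk1 and 10.14 and 10.11 in WT. Under drought those of job B were at 9.74 in osnadk1 and 10.54 and 10.33 in WT, so WT did not fall in job B. PORB, a protochlorophyllide reductase, gave -0.97 ± 0.23, and GSA, which makes the first committed precursor 5-aminolevulinic acid, gave -0.75 ± 0.19 and rose by 0.71 under drought in WT (limma adjusted p = 0.0089). A second GSA probe set, with signals floored at each array's median, gave -0.41, with a drought difference of 0.17 in WT (limma adjusted p = 0.76). Carotenoid genes, a list likewise drawn up afterwards, were negative on 6 of 7 probe sets, 3 of them in both jobs (21.4% of all). Their median of -0.50 was -1.22 (A) and 0.16 (B) by job. At an unadjusted p under 0.05 there were 1 positive and 2 negative ones, against 3.56% and 3.47% of all. The positive one, the phytoene synthase gene OsPSY2, was at 9.49, 9.10 and 9.73 in osnadk1 and 7.80, 7.54 and 8.28 in WT under drought, without overlap, and at 13.36, 13.39 and 9.32 in osnadk1 and 12.97, 9.65 and 9.98 in WT under normal growth. Its fall under drought was 1.93 in osnadk1 (limma adjusted p = 0.0014) and 3.64 in WT (limma adjusted p = 4.3e-05), and its interaction was 1.70 ± 0.35. OsPSY3 gave -1.39 ± 0.42 and the zeaxanthin epoxidase gene ABA1, which acts early in abscisic acid synthesis, -0.87 ± 0.21.

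The 5 probe sets of NADP-linked enzymes (6-phosphogluconate dehydrogenase, NADP-malic enzymes and the ferredoxin-NADP reductase of leaves) had interactions from 0.02 to 0.12, with 0 at an unadjusted p under 0.05 in either direction. These values near 0 are means of opposite signs, since 0 of the 5 had the same sign in both jobs and the list median was 0.23 (A) and -0.18 (B) by job. 6PGDH2 gave 0.62 (A) and -0.56 (B), which differed (limma adjusted p = 0.048), and NADP-ME -0.38 (A) and 0.62 (B). The 27 antioxidant enzyme probe sets had a median of 0.03 and a range of -1.07 to 0.69. At an unadjusted p under 0.05, 3 were positive and 6 negative, against 3.56% and 3.47% of all. Cytosolic ascorbate peroxidase APX2 gave -1.07 ± 0.30 and the catalase CAT-A -0.74 ± 0.23, whereas the peroxisomal APX4 gave 0.61 ± 0.15 and the catalase CAT-B 0.43 ± 0.12. APX4 was at 12.64, 12.63 and 12.84 in osnadk1 and 12.37, 12.18 and 12.29 in WT under drought, and at 12.61, 12.66 and 12.80 in osnadk1 and 12.82, 12.85 and 13.09 in WT under normal growth. The osnadk1 arrays were all higher under drought and all lower under normal growth, and APX4 fell by 0.62 under drought in WT (limma adjusted p = 0.0049), with -0.01 in osnadk1 (limma adjusted p = 0.97).

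Among all probe sets of 1 gene with the same sign in both jobs, those of smallest p were, on the positive side, LOC4337586, LOC4346061, LOC4340422, LOC4343549, LOC4349484, JAZ6, LOC4324699, LOC4323909, the actin gene AC2 and LOC4348804. LOC4337586 gave 10.59, 10.46 and 10.74 in osnadk1 and 10.33, 10.57 and 10.60 in WT under drought, and 7.99, 7.76 and 9.84 in osnadk1 and 9.09, 11.11 and 10.95 in WT under normal growth. The normal-growth arrays of job A were the lowest of their genotype, osnadk1 was below WT in each job there, and the interaction was 1.38 ± 0.16 (limma adjusted p = 0.105), 1.41 (A) and 1.34 (B) by job. LOC4346061 (Os08g0520000), annotated as a mitochondrial carrier, gave 1.41 ± 0.18 (limma adjusted p = 0.105). It was above WT on every drought array (0.95, limma adjusted p = 0.03). Averaged over the jobs, it rose by 1.26 under drought in osnadk1 (limma adjusted p = 0.0003), with -0.15 in WT (limma adjusted p = 0.52). Under drought its signals were 10.29, 10.45 and 10.21 in osnadk1 and 9.53, 9.22 and 9.07 in WT. Under normal growth they were 8.13, 8.05 and 9.97 in osnadk1 and 8.68, 10.27 and 10.33 in WT. In WT it thus went up in job A and down in job B.

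LOC4324699 (Os01g0719600), annotated as a metal ion binding protein, had 8.32, 7.92 and 8.59 in osnadk1 and 6.67, 7.09 and 7.22 in WT under drought, with overlap under normal growth. It was higher in osnadk1 under drought by 1.44 (limma adjusted p = 0.021), and its interaction was 1.49 ± 0.25. LOC4340422, annotated as a protein kinase, gave 1.32 ± 0.19 and AC2 0.97 ± 0.16, each with osnadk1 below WT on every array of normal growth. The other 4 lay between 0.98 and 1.55.

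On the negative side the corresponding probe sets were ClpB-M, LOC4342135, MTR1, LOC4347356, HSFB2A, LOC4341866, HSP17.9A, LOC4331379, LOC4332912 and LOC4344071, so that 3 of the 10 belong to the heat stress lists. LOC4342135 (Os06g0728700), annotated as a MYB family transcription factor, gave 9.07, 7.99 and 7.88 in osnadk1 and 10.84, 10.17 and 9.93 in WT under drought, and 13.70, 13.80 and 7.72 in osnadk1 and 13.56, 6.93 and 6.65 in WT under normal growth. It was lower in osnadk1 on every drought array (-2.24, limma adjusted p = 0.021), while under normal growth all 3 job A arrays were far above the job B arrays. Its interaction was -2.80 ± 0.38 (limma adjusted p = 0.118), and without those job A arrays -3.17. It fell by 2.48 under drought in osnadk1 (limma adjusted p = 0.0005), with 0.32 in WT (limma adjusted p = 0.53).

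MTR1 (Os07g0694600, annotated as a P-protein) was at 9.06, 8.70 and 8.46 in osnadk1 and 9.46, 8.93 and 8.86 in WT under drought, and at 9.22, 9.20 and 9.04 in osnadk1 and 7.96, 8.27 and 8.00 in WT under normal growth. The osnadk1 arrays were all higher under normal growth (1.08, limma adjusted p = 0.026), it rose by 1.09 under drought in WT (limma adjusted p = 0.0022), and the interaction was -1.58 ± 0.23. The other 5 ranged from -1.42 to -0.75. Of the 4 leading probe sets without a gene in the annotation, 2 were negative (-2.09 ± 0.23 and -1.44 ± 0.19) and 2 positive (1.0 ± 0.13 and 1.12 ± 0.21).

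**Figure D4:**
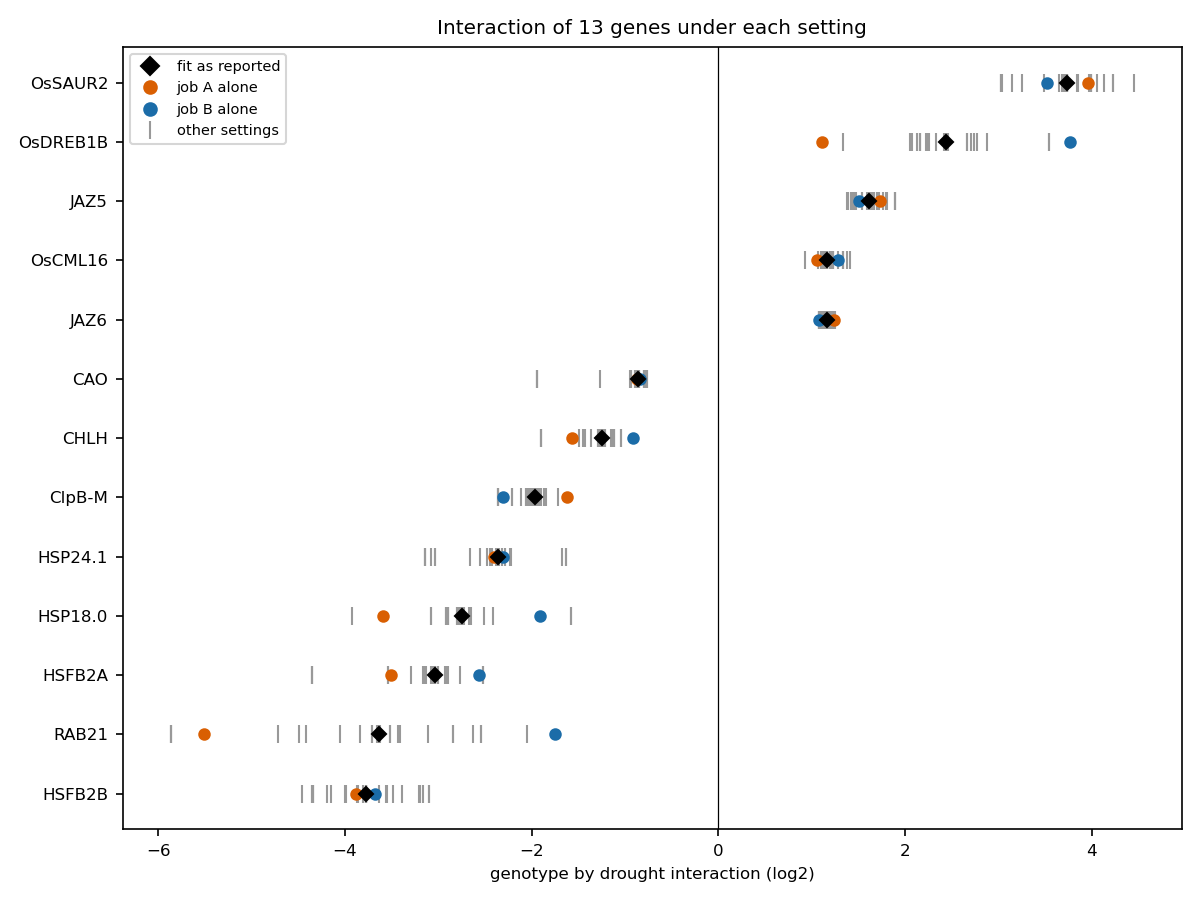
Interaction (horizontal axis, log2) of 13 genes in the reported fit (black diamonds), in job A alone (orange), in job B alone (blue) and under every other setting (grey ticks). JAZ6, OsCML16 and JAZ5 kept within narrow ranges, whereas RAB21 ran from -5.86 to -1.75 and OsDREB1B from 1.11 to 3.77.

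The comparisons that make up the interaction did call genes. Under drought 30 probe sets differed between osnadk1 and WT (18 higher and 12 lower in osnadk1, 0.0936% of those tested), and under normal growth 99 did (35 higher, 0.109%, and 64 lower, 0.2%, in all 0.309%). The 13 called in both treatments had the same direction in each. The drought minus normal difference was called in 2142 probe sets in osnadk1 (1156 up and 986 down, 6.68%) and 3202 in WT (1929 up and 1273 down, 9.99%), and 1365 were called in both, 1361 of them in the same direction. A further 777 were called in osnadk1 but not in WT and 1837 in WT but not in osnadk1, of which 916 together had an interaction with an unadjusted p under 0.05 and 0 one that passed. These drought counts depend on the job terms, since without them 0 probe sets were called in osnadk1 and 2 in WT.

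The other gene lists had medians between -0.20 and 0.62, apart from the diterpenoid phytoalexin genes (-0.91 over 11 probe sets, 0 of them at an unadjusted p under 0.05) and carotenoid genes (-0.50 over 7). The 64 PP2C phosphatase probe sets, negative regulators of abscisic acid signalling among them, had a median of 0.13. At an unadjusted p under 0.05, 7 were positive and 3 negative, against 3.56% and 3.47% of all. Of the 10 SAPK kinases that these phosphatases act on, OsSAPK7 was the one at that level (0.85 ± 0.25). Averaged over the jobs, it rose by 1.61 in osnadk1 (limma adjusted p = 0.0005) and 0.76 in WT (limma adjusted p = 0.02). Its signals were 9.69, 9.84 and 10.09 in osnadk1 and 9.19, 9.32 and 9.91 in WT under drought. Under normal growth they were 6.81, 6.58 and 9.98 in osnadk1 and 7.11, 10.31 and 10.11 in WT. Only the job A arrays of normal growth were low, and WT did not rise in job B. All 10 probe sets of the NAC list, which does not hold OsNAC9, were positive (51.3% of all), 3 in both jobs (22.7%), with a median of 0.50. Aquaporins had a median of -0.06, but -0.60 (A) and 0.54 (B) by job, and the silicon channel gene Lsi6, also counted among the root genes, gave 1.45 ± 0.33 with 1.46 and 1.43 in the jobs.

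Calmodulin-like sensors had a median of 0.27 over 26 probe sets. At an unadjusted p under 0.05, 2 were positive and 0 negative, against 3.56% and 3.47% of all. The 4 P5CS probe sets, of the enzyme that starts proline synthesis, ran from -0.53 to -0.06, 1 of them at that level (3.47% of all). The 8 circadian clock probe sets had a median of -0.03 and 0 at that level, while their mean signal was 12.15 to 12.39 on the 3 normal-growth arrays of job A and lower on each of the other 9, down to 11.59. The members went opposite ways on those 3 arrays. The morning gene CCA1 was at 13.34 and 13.02 in osnadk1 and 13.79 in WT there, against 7.31 to 8.63 on the other 9, and OsPRR1, of the pseudo-response regulator family, was at 9.36 and 9.83 in osnadk1 and 9.34 in WT, against 12.12 to 12.54. Whether that has a part in the results above was not tested. Histone H2B, a gene family of dividing tissue, had a median of -0.19 and a mean signal of 12.62 to 13.11 on all arrays.

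**Figure D5:**
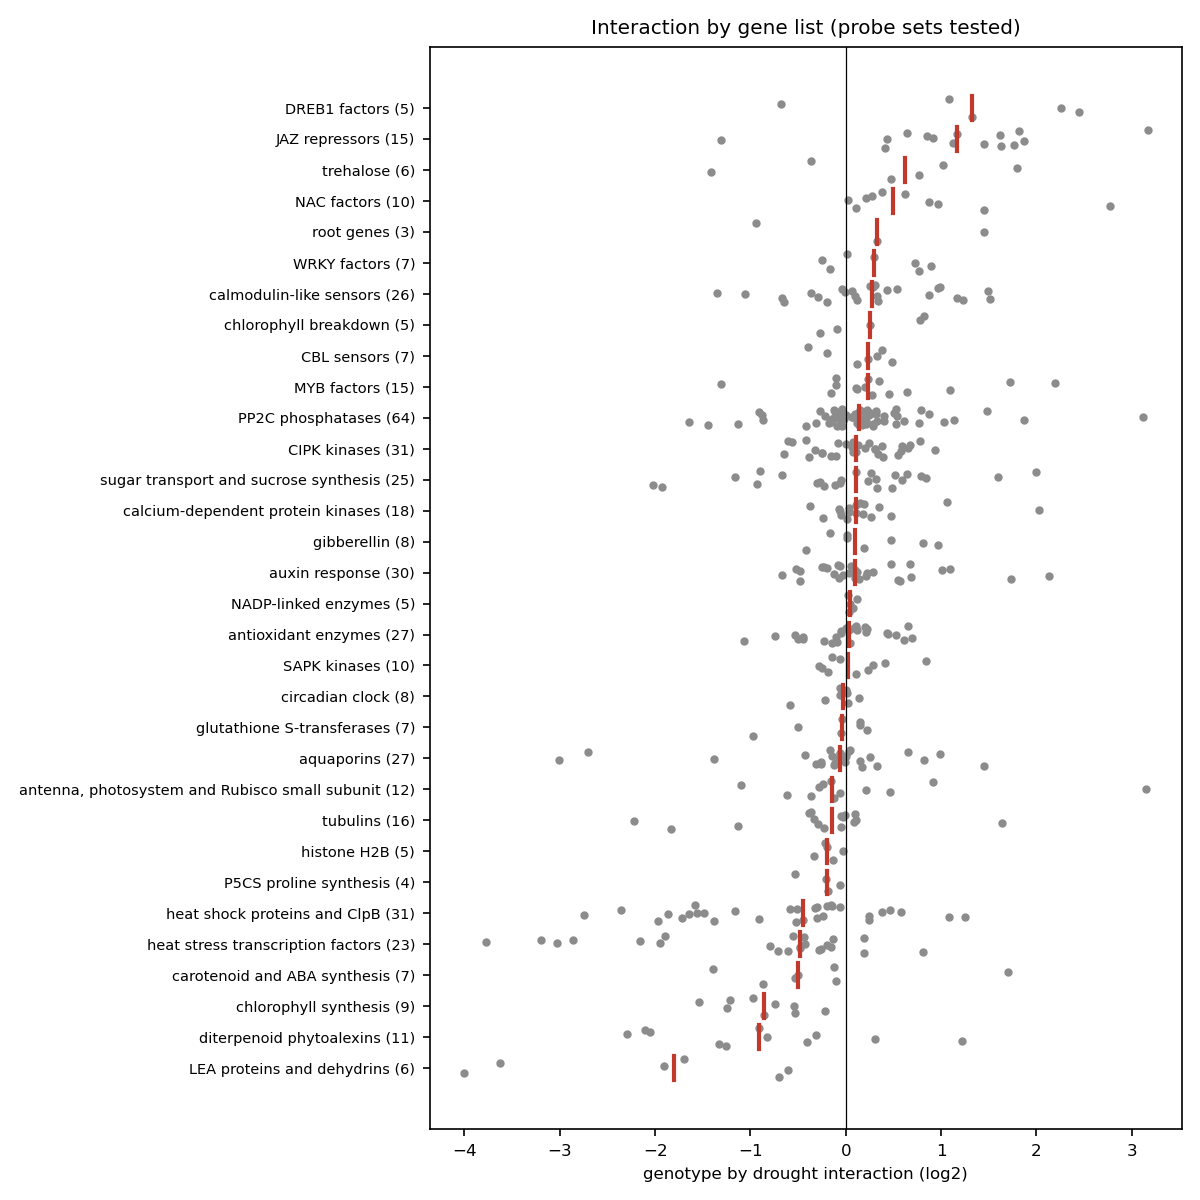
Interaction (horizontal axis, log2) of every tested probe set of 32 gene lists, by list, with the number of probe sets in parentheses and a red bar at the list median. JAZ and DREB1 genes have the highest medians (1.16 and 1.32), and LEA, diterpenoid, chlorophyll synthesis, carotenoid, HSF and heat shock genes the lowest. The DREB1 and LEA medians rest in part on signals below the array median.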

How the data were processed

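The authors deposited log2 MAS5 signals of 57381 probe sets (MAS5 version not stated), each array scaled to one target, since the trimmed mean of linear signals is 500.1 on all 12 arrays. No further normalization was applied. Job labels were read from label prefixes. Probe sets were named through the platform annotation and RefSeq symbols (assembly ASM3414082v1), and 22436 matched 1 gene, 95 several and 34850 none. The test was limma 3.58.1 (R 4.3.3), fitted to all tested probe sets (4 groups, job within treatment, mean-variance trend, Benjamini-Hochberg adjustment), with 6 residual degrees of freedom, and its script was tested on simulated data. The number of arrays limits the precision. Genes named were OsNADK1, the 10 leading probe sets per direction (2 without a gene), the study's 10 qRT-PCR genes and up to 4 members of each of 32 lists. Other list members, 2 lists and the genes of opposite sign were added once values were known. The contrast, members and lists were chosen with earlier results of these data known. Lists were drawn by gene symbol, because the reference holds no descriptions. Alternatives changed job terms, replicate block, scaling, filter, floor (percentile 25 or, added later, the median), a pseudocount of 16, the variance model and the arrays used.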

Additional observations from a re-analysis of the deposited data

How the results depend on the processing

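The interaction called 0 probe sets in the reported fit and under every alternative except job A alone (300), job B alone (383), without the normal-growth arrays of job A (285) and some single arrays left out, where counts ran from 0 to 567 (567 without osnadk1 normal replicate 3, 282 without WT normal replicate 1). The correlation of same-numbered deviations ran from -0.27 to 0.32. Such correlations were positive within a job and negative across jobs, and replicate 2 is in job A for osnadk1 but in job B for WT. They therefore cannot settle whether replicate numbers mark pairs. With a replicate block, with or without job terms, the interaction called 0. At an unadjusted p under 0.05 the counts of 2256 became 1268 without a job term, 908 with array quality weights, 1465 with the replicate block and 3489 without a filter. With no job term the calls were 18 for genotype under drought, 45 for genotype under normal growth, 0 for drought in osnadk1 and 2 for drought in WT, and with 1 job term for both treatments 14, 48, 6 and 186. The cause was not tested. Of the 82 probe sets named with an interaction, 76 kept its sign under all alternatives. The exceptions were OsNAC9 (0.29 in job B, -0.94 without osnadk1 normal replicate 3, 0.26 without the normal-growth arrays of job A or WT normal replicate 1), HSP81-2 (0.0752 in job A, 0.0289 with quantile normalization, and with single arrays left out from -0.146 without WT normal replicate 1 to 0.0173 without osnadk1 normal replicate 3), RAB16C (0.48 in job B, -4.37 without osnadk1 normal replicate 3, 0.56 without the normal-growth arrays of job A or WT normal replicate 1), OsWRKY42 (-0.36 in job B), OsNADK1 (-0.34 in job B) and HSFA1 (-0.0268 in job B, -0.10 without the normal-growth arrays of job A or WT normal replicate 1). Signals below the array median, as in RAB21 and LEA19, limit the size of their interactions.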
